A study of Mus musculus with 9 samples.

Results

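The lipid droplet coat and lipolysis genes were 10 of the 21989 genes measured by RNA sequencing of the mouse aortic arch, where the great vessel bends above the heart. They were chosen by name and comprised the perilipin genes Plin1, Plin2, Plin4 and Plin5, the CIDE genes Cidec and Cideb, the lipase genes Pnpla2, Lipe and Mgll, and G0s2, which encodes an inhibitor of the PNPLA2 lipase. Expression was given as FPKM, a level scaled to gene length and to the sequencing depth of the library. All 10 genes reached 1 FPKM in at least 3 libraries, as did 12895 genes of the table, and these were tested.

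The 9 libraries formed 3 groups of 3. High dose libraries came from ApoE-/- mice on a high-fat diet that were also gavaged for 15 weeks with 5.12 g/kg/day of a preparation labelled ZCL, in a series concerned with the plant Ziziphora clinopodioides Lam. and lipid metabolism. Model libraries came from ApoE-/- mice on the same diet for 15 weeks, and control libraries from mice of the C57BL/6J strain with a standard diet. Genotype and diet therefore differed together between model and control and cannot be told apart, and both ApoE-/- groups lack the apolipoprotein that clears remnant lipoproteins. Age and sex were not given, and no label states that each library is its own animal. The p-values therefore rest on the spread between libraries, part of which may be technical.

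Neutral lipid is stored in droplets that are covered by perilipins and other coat proteins. Adipocytes hold large droplets coated by perilipin 1, whereas macrophages that take up lipoproteins in a plaque coat their many small droplets mainly with perilipin 2. Stored triglyceride is broken down in sequence by PNPLA2 (adipose triglyceride lipase), LIPE (hormone-sensitive lipase) and MGLL (monoglyceride lipase), and access of these lipases to the droplet is set by the coat. CIDE proteins sit where droplets touch and enlarge them, or, for CIDEB in the liver, take part in loading lipoprotein particles.

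Apoe itself stood at 25.4 to 93.7 FPKM in high dose and 18.9 to 33.4 in model libraries, against 339.9 to 1006 in control libraries. The smooth muscle actin gene Acta2 (177 to 1857 FPKM) and the endothelial gene Pecam1 (118 to 198) were present in all 9 libraries. Genes of other tissues differed widely between libraries of 1 group. The summed level of 15 white adipocyte markers, none of them among the 10 genes, ran from 2434 to 12675 FPKM in high dose, 5829 to 17871 in model and 3707 to 21589 in control libraries, with no marker at 0 in any library. The summed level of 14 heart muscle markers was 12914 and 21613 FPKM in high dose 2 and 3 and 34894 and 9166 in control 1 and 2, and no higher than 101.7 in the other 5 libraries. The summed level of 16 macrophage markers was 667 to 3526 FPKM in high dose, 1631 to 6859 in model and 284 to 860 in control libraries. Relative depth, read from the steps between low FPKM values, lay between 56.3% (control 2) and 100% (model 1) of the deepest library. In bulk tissue, fewer cells of a type and less RNA per cell cannot be told apart.

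**Figure D1:**
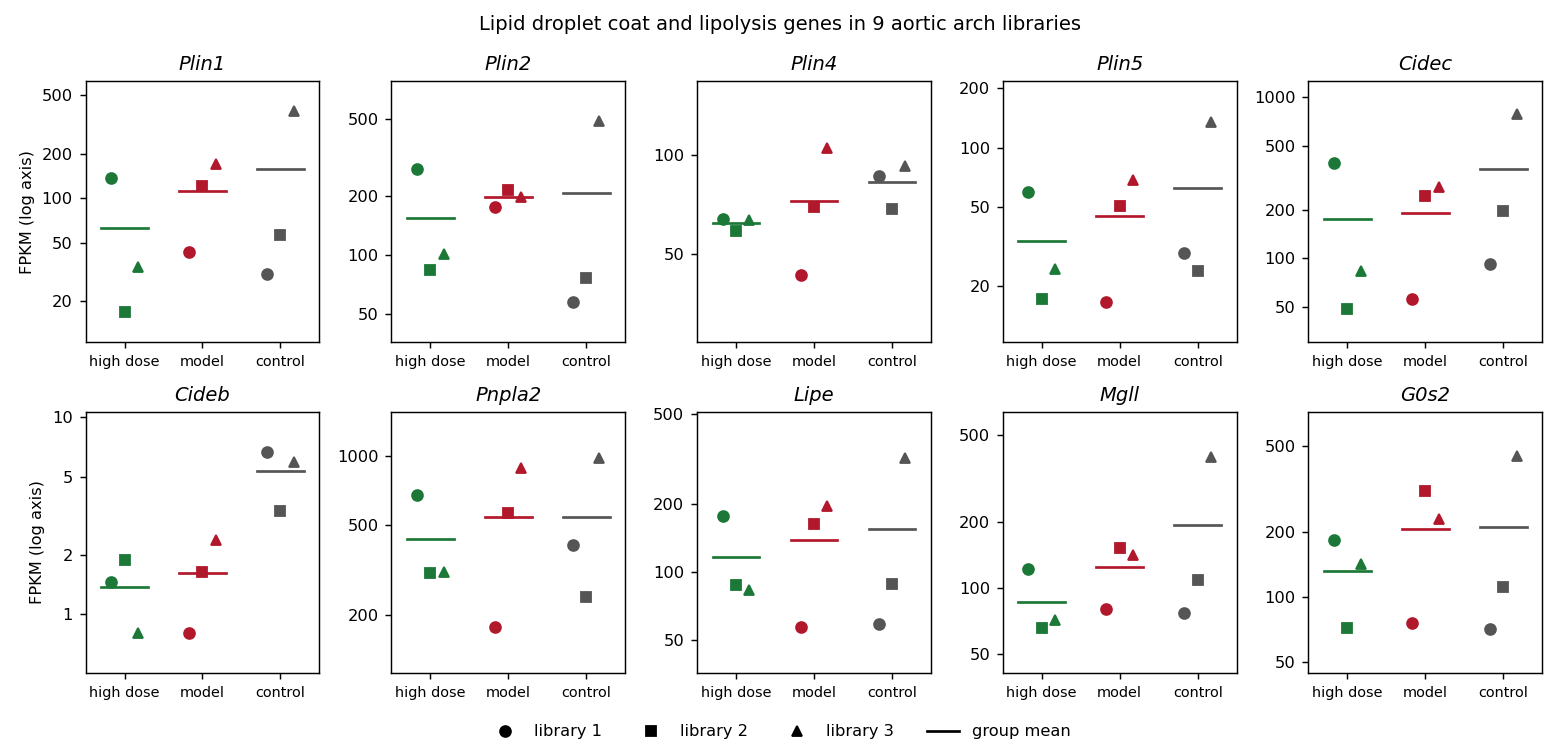
FPKM of each of the 10 genes (log axis, scaled separately for each gene) in the 3 high dose, 3 model and 3 control libraries, with the symbol giving the library number and the line the group mean. Control 3 is the highest library for 8 of the 10 genes, and only Cideb separates the control libraries from both other groups.

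As a set, the genes were abundant in the arch. Apart from Cideb, the median level of each over the 9 libraries lay between the 83.3rd percentile (Plin5, 29.4 FPKM) and the 98.9th percentile (Pnpla2, 406 FPKM) of the tested genes, while Cideb (1.88 FPKM) lay at the 16.4th. The 10 genes together took 0.919% of summed FPKM in control 3, between 0.427% and 0.530% in high dose 1, model 2 and model 3, and between 0.154% and 0.226% in the other 5 libraries. Control 3 was the highest library for 8 of the 10 genes and among the top 2 for all 10, although it was the highest library for 11.2% of all tested genes. Control 3 also had the highest summed white adipocyte markers and the highest Ucp1, the uncoupling protein of brown fat, at 7979 FPKM against 308 to 2281 in the other 8 libraries.

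Perilipin 1 guards the large droplets of fat cells and holds the lipase co-activator ABHD5 until a hormone signal releases it. Plin1 (GRCm38, chr7:79720218-79732903) stood at 137, 16.8 and 34.0 FPKM in high dose libraries 1 to 3, at 43.4, 122 and 172 in model libraries, and at 30.8, 56.0 and 391 in control libraries. The groups overlapped throughout, and the highest control library was 12.7 times the lowest. Perilipin 2 is the droplet coat of macrophages, liver cells and many other cells, and is degraded when no lipid is present. Plin2 (chr4:86648386-86670060) stood at 278, 84.1 and 101 FPKM in high dose, at 178, 216 and 199 in model, and at 57.1, 76.4 and 489 in control libraries. The model libraries lay close together, and control held both the lowest values and the highest one. Among the 10 genes Plin2 had the smallest spread in model, at 1.22 times between the highest and lowest library, against 3.96 times for Plin1; the median over 12581 genes was 1.47 times.

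Perilipin 4 coats nascent droplets in adipocytes and muscle, and perilipin 5 links droplets to mitochondria in heart, brown fat and other tissues that burn fatty acids. Plin4 (chr17:56100591-56109803) stood at 64.2, 58.8 and 63.4 FPKM in high dose, at 43.2, 69.5 and 105 in model, and at 86.4, 68.7 and 92.6 in control libraries. It was the least variable of the 10 genes, with 2.43 times between its highest and lowest library, and every high dose library lay below every control library. Plin5 (chr17:56111601-56117596), the neighbour of Plin4 on the same strand, stood at 59.8, 17.2 and 24.4 FPKM in high dose, at 16.8, 51.0 and 68.6 in model, and at 29.4, 24.0 and 135 in control libraries. High dose 1, model 2, model 3 and control 3 were its highest libraries, which were also the highest 4 for Plin1, Plin2, Cidec, Pnpla2, Lipe, Mgll and G0s2.

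Cidec encodes the protein that fuses small droplets into the single large droplet of white fat. Cidec (chr6:113424634-113435760) stood at 392, 48.4 and 83.7 FPKM in high dose, at 55.9, 242 and 276 in model, and at 92.1, 197 and 784 in control libraries, with all groups overlapping. Cideb is known as a liver and intestine gene and was the lowest of the 10 here. Cideb (chr14:55754050-55758458) stood at 1.46, 1.88 and 0.801 FPKM in high dose, at 0.805, 1.64 and 2.38 in model, and at 6.67, 3.36 and 5.96 in control libraries. Every high dose and every model library lay below every control library. Cideb overlaps Nop9 on the opposite strand over 1451 bases, and the labels do not state whether strand was used in counting, so reads of the overlap cannot be assigned with certainty. Nop9 stood at 4.56 to 6.68 FPKM in high dose, 4.65 to 5.39 in model and 4.85 to 6.13 in control libraries, with the groups overlapping.

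Pnpla2 starts triglyceride breakdown. Pnpla2 (chr7:141455198-141460743) was the most abundant of the 10 genes by median and stood at 679, 307 and 309 FPKM in high dose, at 178, 561 and 889 in model, and at 406, 240 and 979 in control libraries. G0s2 (chr1:193272161-193273217), whose product binds and blocks PNPLA2, stood at 183, 71.8 and 143 FPKM in high dose, at 76.2, 311 and 230 in model, and at 71.1, 112 and 450 in control libraries. Groups overlapped for both genes. G0s2 lies within the span of Lamb3 on the opposite strand, which stood at 0.543 to 3.39 FPKM in high dose, 0.232 to 0.822 in model and 3.41 to 7.35 in control libraries. Within a library the G0s2 level was 0.234 to 0.462 of the Pnpla2 level in high dose, 0.259 to 0.554 in model and 0.175 to 0.466 in control, again overlapping.

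Lipe acts next, on diglyceride and on cholesteryl ester, the lipid that fills foam cells. Lipe (chr7:25379527-25398710) stood at 177, 87.0 and 82.7 FPKM in high dose, at 56.8, 163 and 195 in model, and at 58.8, 87.8 and 319 in control libraries. Mgll releases the last fatty acid and also breaks down an endocannabinoid. Mgll (chr6:88724412-88828360) stood at 122, 65.6 and 71.5 FPKM in high dose, at 80.8, 153 and 141 in model, and at 77.1, 109 and 397 in control libraries. The groups overlapped for both genes, and control 3 stood far above all other libraries. The Lipe level was 0.261 to 0.283 of the Pnpla2 level in high dose, 0.219 to 0.319 in model and 0.145 to 0.366 in control libraries.

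**Figure D2:**
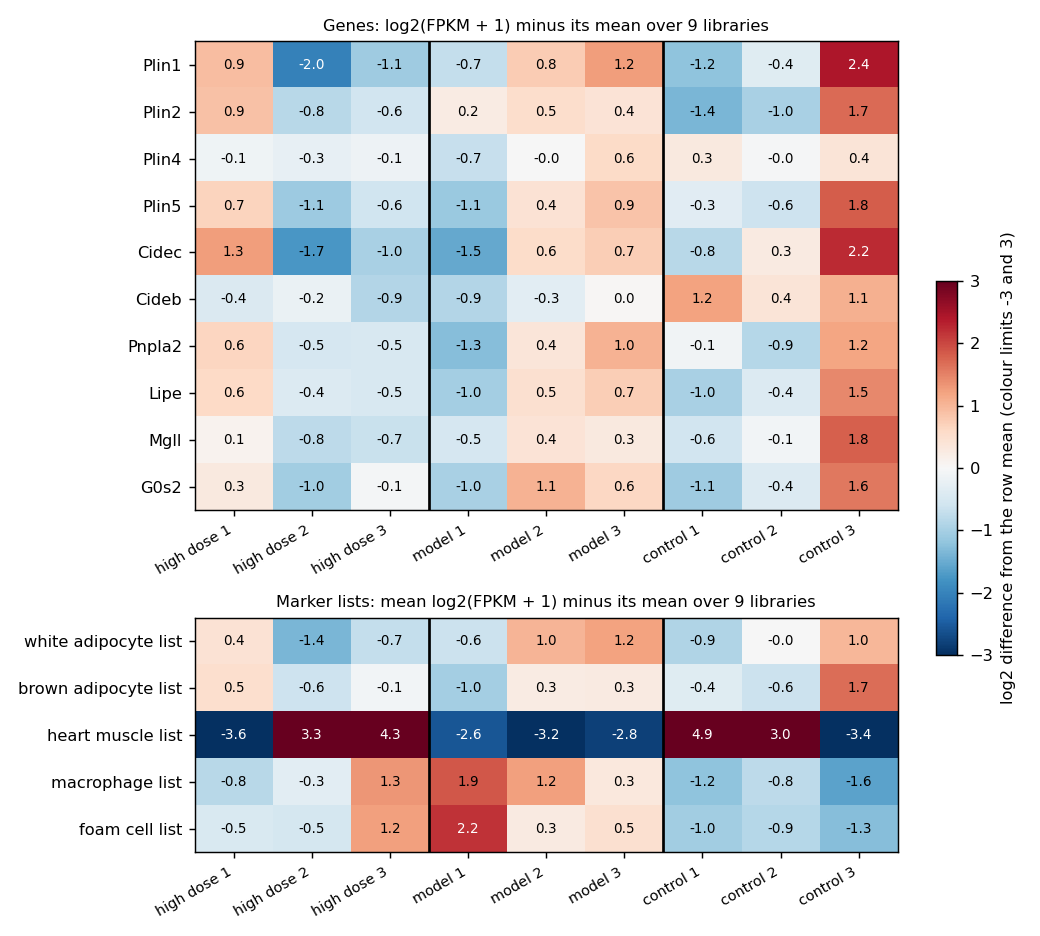
Upper panel, log2(FPKM + 1) of each gene minus its mean over the 9 libraries; lower panel, the same for the mean of 5 marker lists that hold none of the 10 genes. High dose libraries stand left, model libraries in the middle and control libraries right, and colours stop at -3 and 3. Most of the 10 genes are high in high dose 1, model 2, model 3 and control 3, where the adipocyte lists are also above their mean and the heart muscle list is below it.

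Model against control addresses the joint effect of ApoE loss and high-fat feeding on these genes, and none of the 10 passed. By limma on log2(FPKM + 1), with Benjamini-Hochberg adjustment over all tested genes, 0 of 10 had an adjusted p under 0.05, as did 0% of all 12895 genes; 1 of the 10 and 821 of all had an unadjusted p under 0.05. Apoe, the gene that the genotype removes, did not pass either, at a log2 difference of -4.67 ± 0.561 (SE). Its limma adjusted p = 0.216 was the smallest of all tested genes. Cideb averaged 1.61 ± 0.787 FPKM in model and 5.33 ± 1.74 in control (SD, n = 3 each), a log2 difference of -1.28 ± 0.336 (SE) with a limma adjusted p = 0.688 and the 60th smallest p of all genes. It was the 1 gene of the 10 that lay lower without overlap, where 9.06% of all tested genes did, and 0 of 10 lay higher without overlap, where 6.91% did. Groups without overlap stay so when a library is left out, so Cideb had to remain lower and this is no check of it. No other gene of the 10 joined it. Of all genes 13.4%, 11.2% and 11.8% were lower in this way without model 1, 2 and 3. Without control 1, 2 and 3 the shares were 12.9%, 11.3% and 24.9%. Array weights were 5.92 for model 2, 3.00 for model 3 and 2.00 for control 1. For the other libraries they lay between 0.379 (control 3) and 0.813 (high dose 3). The weighted comparison thus rested largely on 2 model libraries and 1 control library. With these weights Cideb passed (log2 difference -1.27, limma adjusted p = 0.0434) as 1 of 684 genes, 5.30% of all tested, against 0 without weights. After quantile normalization it overlapped, and 0 of 10 were lower without overlap where 8.56% of all genes were. Plin2 averaged 198 ± 19.4 FPKM in model and 208 ± 244 in control, with a log2 difference of 0.61 ± 0.772 and a limma adjusted p = 0.921. Without control 3, Plin2 lay higher in every model library than in the other 2 control libraries, at a log2 difference of 1.56 with a limma adjusted p = 0.344, and 11.7% of all genes lay higher without overlap in that setting. In the same comparison 15 of 15 tested macrophage markers lay higher in model without overlap, with a median log2 difference of 2.42, and their part in the Plin2 values was not tested. The signs of the 10 fitted differences were mixed: 4 were above 0 and 6 below, with a median of -0.13 against -0.010 over all tested genes. With the mean level of the white adipocyte markers as a covariate 1 of the 10 was above 0. With that of the heart muscle markers 0 were, and none of the 10 passed in either fit. The heart muscle markers were high in control 1 and 2 and in no model library, so that fit cannot separate heart muscle content from group. Pnpla2 (-0.034 ± 0.706) and Lipe (0.043 ± 0.689) had fitted differences close to 0. Their 95% intervals ran from -1.64 to 1.57 and from -1.52 to 1.61, so changes of 2-fold in either direction lay within both intervals.

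High dose against model addresses the effect of ZCL, since genotype and diet were shared, though the libraries also differed in tissue content. The smallest limma adjusted p of all tested genes was 0.0883, for Ciart. All 10 fitted differences were below 0 and none passed: 0 of 10 genes and 0% of all tested genes had a limma adjusted p under 0.05, while 0 of 10 and 1729 of all had an unadjusted p under 0.05. Plin1 had the largest difference, averaging 62.7 ± 65.1 FPKM in high dose and 112 ± 64.7 in model (SD, n = 3 each), with a log2 difference of -1.15 ± 1.04 (SE) and a limma adjusted p = 0.627. Plin2 averaged 154 ± 107 FPKM in high dose and 198 ± 19.4 in model, a log2 difference of -0.56 ± 0.772 with a limma adjusted p = 0.759. Mgll averaged 86.5 ± 31.2 FPKM in high dose and 125 ± 38.7 in model, a log2 difference of -0.53 ± 0.585 with a limma adjusted p = 0.695. No gene of the 10 was without overlap in either direction (0 lower and 0 higher, against 10.9% and 11.7% of all tested genes). The median of the 10 differences was -0.40, against 0.00080 over all tested genes. The white adipocyte markers had a median of -0.67 in the same comparison, with 14 of 15 below 0, and with their mean level as a covariate the differences of all 10 genes turned above 0, the largest being 1.22 for Cidec (limma adjusted p = 0.167). All 14 heart muscle markers had differences above 0, with high levels in 2 of 3 high dose libraries, and with that list's mean as a covariate 8 of the 10 differences were above 0. Both marker lists themselves shifted between these groups, so neither fit can separate tissue content from an effect of ZCL. Leaving out high dose 1 put Plin1, Plin2 and Mgll below model without overlap, where 19.8% of all genes were lower in this way, and leaving out model 1 did so for Plin4, Mgll and G0s2, again with 19.8% of all genes.

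High dose and control differed in genotype, diet and ZCL together, and their comparison shares its libraries with the other comparisons. Of the 10 genes 0 passed (0% of all tested genes did), and 1 of 10 and 701 of all had an unadjusted p under 0.05. Apoe, at a log2 difference of -3.94 ± 0.561 (SE), again had the smallest limma adjusted p of all tested genes, at 0.330. Cideb averaged 1.38 ± 0.542 FPKM in high dose and 5.33 ± 1.74 in control (SD, n = 3 each), a log2 difference of -1.40 ± 0.336 (SE) with a limma adjusted p = 0.705. Plin4 averaged 62.1 ± 2.91 FPKM in high dose and 82.6 ± 12.4 in control, a log2 difference of -0.40 ± 0.313 with a limma adjusted p = 0.890. Both lay lower without overlap, making 2 of 10 where 5.02% of all tested genes did so, and 0 of 10 lay higher, where 3.66% did. Leaving out high dose 1 made it 4 of 10, with Cidec and Mgll added, where 13.4% of all genes were lower. No gene was added without high dose 2 or 3 (7.72% and 9.11% of all genes) or without control 1, 2 or 3 (8.28%, 7.30% and 12.8%). Cideb and Plin4 had to stay lower in these sets, since leaving out a library cannot make separate groups overlap. After median-ratio rescaling of the libraries 1 of 10, Cideb, was lower without overlap, where 5.51% of all genes were. Cidec averaged 175 ± 189 FPKM in high dose and 358 ± 373 in control, a log2 difference of -1.05 ± 1.01 with a limma adjusted p = 0.906. In all, 9 of the 10 differences were below 0 with a median of -0.51, against 0.0022 over all tested genes. Plin2 again depended on control 3: its log2 difference was 0.046 ± 0.772 with all libraries and 1.00 without control 3 (limma adjusted p = 0.798), where every high dose library lay above the other 2 control libraries, as 6.94% of all genes did.

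**Figure D3:**
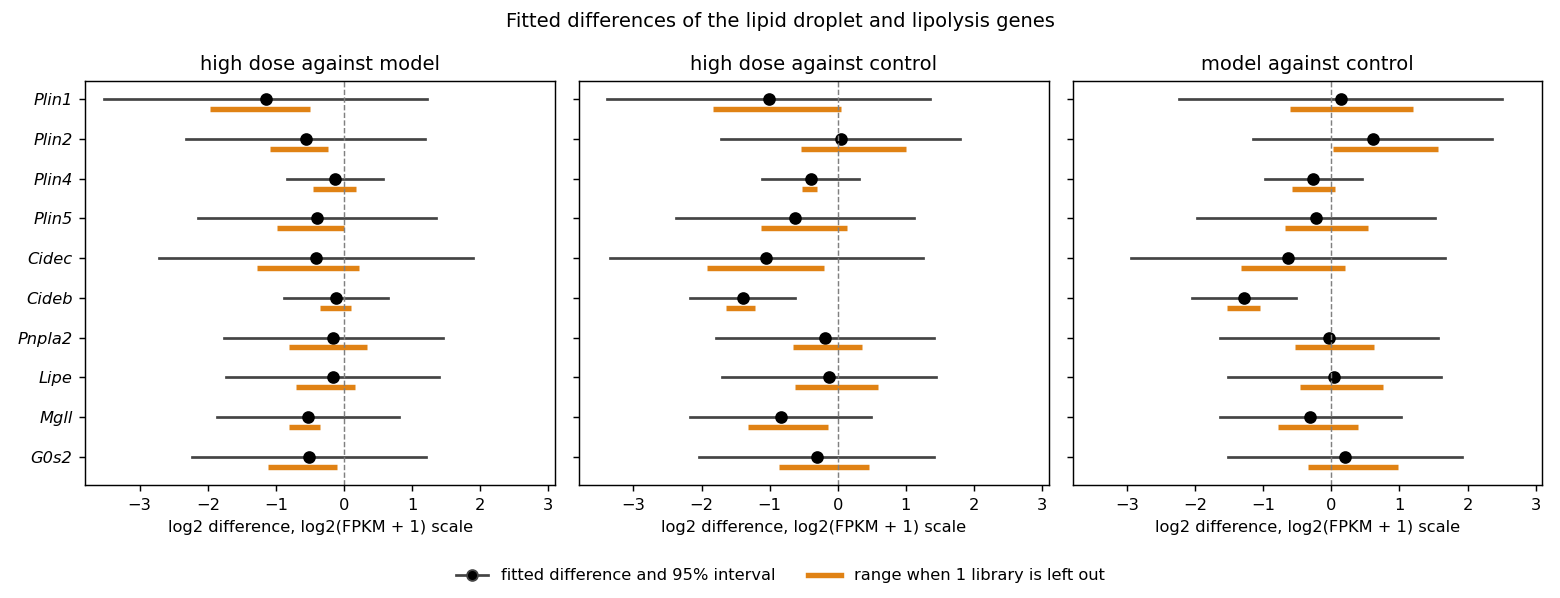
Fitted log2 differences (first-named group minus the second, log2(FPKM + 1) scale) of the 10 genes in the 3 comparisons, with 95% intervals from limma (black) and the range of the estimate when 1 library at a time is left out (orange). The intervals are not adjusted for the number of genes tested. That of Cideb lies below 0 against control in both comparisons, but Cideb did not pass (limma adjusted p = 0.688 for model and 0.705 for high dose). In at least 1 of the reduced sets 20 of the 30 estimates change sign.

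Ratios between genes of the same library do not depend on the scaling of that library. The 4 given here were chosen after their values were seen and carry no test. Plin2 was 0.709, 1.74 and 1.21 times Cidec in high dose libraries, 3.18, 0.894 and 0.722 times in model libraries, and 0.620, 0.388 and 0.624 times in control libraries. Every library of both ApoE-/- groups lay above every control library. Relative to Mgll, Plin2 stood at 2.27, 1.28 and 1.41 in high dose, 2.20, 1.41 and 1.41 in model, and 0.741, 0.702 and 1.23 in control libraries, so that control 3, with the highest Plin2 level of all, was also below both ApoE-/- groups here. The ratio of Plin1 to Cidec was 0.350, 0.348 and 0.407 in high dose, 0.777, 0.505 and 0.622 in model, and 0.334, 0.284 and 0.499 in control libraries. Model stood above both other groups, though model 2 exceeded control 3 only narrowly. The ratio of Lipe to Mgll was 1.45, 1.32 and 1.16 in high dose, 0.703, 1.07 and 1.38 in model, and 0.763, 0.807 and 0.804 in control libraries, so high dose lay above control while model spanned both.

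Of the 45 pairs that the 10 genes form, 10 had ratios without overlap between model and control, 2 between high dose and model, and 6 between high dose and control. Over all pairs of 12581 genes above 0 in every library, 19.6%, 22.2% and 9.64% did so in the same comparisons. Pairs that share a gene are not independent, and 5 of the 10 in the first comparison involved Cideb. Set against Adipoq, the adiponectin gene of fat cells, Cidec stood at 0.854, 0.886 and 0.459 of the Adipoq level in high dose, at 0.436, 0.508 and 0.472 in model, and at 0.950, 0.953 and 1.32 in control libraries. Cidec and Cideb were lower relative to Adipoq in every model library than in every control library, 2 of 10 genes where 1.88% of 12580 genes were, and Cidec was lower in every high dose than in every control library, 1 of 10 where 0.127% were. The other 8 genes overlapped relative to Adipoq in all 3 comparisons. The margin of Cidec between high dose and control was narrow, at 0.886 in high dose 2 against 0.950 in control 1. Adipoq itself ran from 54.6 to 459 FPKM in high dose and from 96.9 to 593 in control libraries. A gene that does not follow fat content can then seldom separate in this ratio. The shares over all genes are therefore not a like background for genes of fat cells. The ratio of Plin1 to Adipoq ran from 0.187 to 0.338 in 8 libraries and was 0.660 in control 3.

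**Figure D4:**
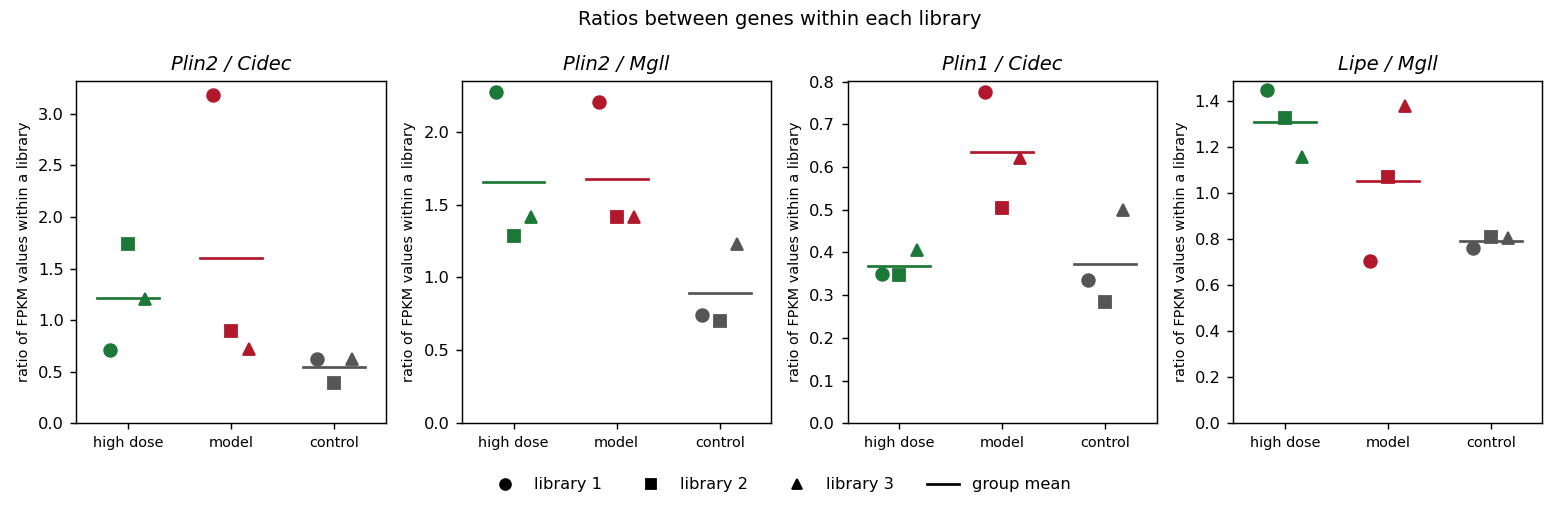
Ratios of FPKM values within each library for 4 pairs of genes, by group, with the symbol giving the library number and the line the group mean. Plin2 relative to Cidec and to Mgll is lowest in the control libraries, Plin1 relative to Cidec is highest in the model libraries, and Lipe relative to Mgll is higher in high dose than in control libraries.

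The genes whose profile over the 9 libraries was most like that of each member were named by the 3 highest Pearson correlations of log2(FPKM + 1), as a description: they are the top of 12895 genes and the libraries share their tissue content. For Plin5 they were Crat, Hspa9 and Lonp1 (0.992, 0.991 and 0.990), a carnitine acetyltransferase, a mitochondrial chaperone and a mitochondrial protease. For Cidec they were Cat, Acot8 and Ehhadh (0.960, 0.958 and 0.958), which encode peroxisomal enzymes. For Pnpla2 they were Sirt3, Ndufs4 and Uqcc1 (0.966, 0.965 and 0.960), all of mitochondria, and for Lipe Aifm2, Coasy and Nat8l (0.988, 0.984 and 0.979). For Mgll they were Nr1h3, which encodes the liver X receptor alpha, Lipt1 and Pfkl (0.992, 0.977 and 0.974). For Plin1 they were Tada2b, Mogat1 and Arxes1 (0.992, 0.986 and 0.985), and for G0s2 Cd1d1, Ppp2r5a and Mrps18c (0.982, 0.978 and 0.978). The Plin2 profile was nearest to Trappc4, Pctp and Comtd1 (0.972, 0.970 and 0.964), that of Plin4 to Zc3h14, Ndufb10 and Smim19 (0.927, 0.926 and 0.920), and that of Cideb to Nedd4l, Mtg2 and Mtus1 (0.961, 0.955 and 0.922). No member was among the 3 nearest genes of another member.

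The promoters of Plin1, Cidec and Plin2, which were among the 8 genes highest in control 3, and of Cideb, which was without overlap against control, are shown for comparison. Plin2 was taken for its ratio to Cidec, which was chosen after its values were seen and was not tested. RefSeq promoter windows on GRCm38.p6 were found for all 10 genes, and the 250 bases before the start are given 5′ to 3′ on the gene's strand, the minus strand for all 4, at chr7:79732777-79733026, chr6:113435761-113436010, chr4:86670060-86670309 and chr14:55758425-55758674. Capitals mark matches on either strand to AGGTCA, a core word of nuclear receptor sites, to TATAAA, to CCAAT, to GGGCGG and to CACGTG.
Plin1: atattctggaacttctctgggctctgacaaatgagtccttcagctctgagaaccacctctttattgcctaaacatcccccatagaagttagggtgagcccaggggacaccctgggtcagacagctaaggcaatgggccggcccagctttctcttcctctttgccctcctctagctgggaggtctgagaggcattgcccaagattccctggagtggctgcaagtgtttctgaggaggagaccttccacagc
Cidec: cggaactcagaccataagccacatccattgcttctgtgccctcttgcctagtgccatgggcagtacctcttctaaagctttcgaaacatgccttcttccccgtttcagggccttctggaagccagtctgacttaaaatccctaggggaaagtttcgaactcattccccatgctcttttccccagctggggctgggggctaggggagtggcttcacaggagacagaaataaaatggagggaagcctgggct
Plin2: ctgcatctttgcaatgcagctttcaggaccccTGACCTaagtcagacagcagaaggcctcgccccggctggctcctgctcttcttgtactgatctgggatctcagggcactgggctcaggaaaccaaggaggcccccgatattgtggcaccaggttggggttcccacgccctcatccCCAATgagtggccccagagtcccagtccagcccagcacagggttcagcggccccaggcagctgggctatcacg
Cideb: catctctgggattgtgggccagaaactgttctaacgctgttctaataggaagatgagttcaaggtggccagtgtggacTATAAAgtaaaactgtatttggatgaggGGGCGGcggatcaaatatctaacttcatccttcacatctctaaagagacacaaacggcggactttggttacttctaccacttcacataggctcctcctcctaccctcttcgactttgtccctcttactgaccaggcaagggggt
The windows of Plin1 and Cidec held none of these words. Plin2 held AGGTCA on the opposite strand, 218 to 213 bases before the start, and CCAAT 73 to 69 bases before it. Cideb held TATAAA 172 to 167 and GGGCGG 144 to 139 bases before the start. The 10 genes have 14 windows in the table, and AGGTCA was found in 2 of these windows, CCAAT in 3, GGGCGG in 7, CACGTG in 2 and TATAAA in 1. Of all 32851 windows in the table these words occurred in 14.0%, 33.8%, 32.7%, 6.02% and 12.4%. The spaced pair of AGGNCA words bound by PPAR receptors, known as DR1, was in 0 of the 14 windows and in 0.338% of all windows. These are matches of letters within 250 bases and say nothing of binding.

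Other droplet proteins and lipases were read from a list of 32 genes, of which 27 were tested. None passed in any comparison (0 higher and 0 lower in each of the 3). Without overlap, 1 lay higher and 1 lower in model against control, 1 higher and 1 lower in high dose against model, and 3 higher and 0 lower in high dose against control, and the genes named here are these. For model against control and for high dose against model, 1 of 27 was below the share of all tested genes in each direction. For high dose against control, 3 of 27 higher was above that share and 0 lower was below it. Those shares are given with the 3 comparisons above. The median log2 difference was 0.18 for model against control, -0.11 for high dose against model and -0.17 for high dose against control. Pnpla3, a droplet lipase relative of Pnpla2, stood at 45.8, 21.1 and 51.1 FPKM in high dose, 9.74, 45.1 and 63.0 in model, and 1.16, 2.56 and 13.3 in control libraries. It lay higher in every high dose than in every control library, at a log2 difference of 2.98 ± 0.830 (SE) and a limma adjusted p = 0.805, and overlapped between model and control through model 1. Lpcat2, which makes phosphatidylcholine on droplets of inflammatory cells, stood at 5.55, 7.83 and 6.27 FPKM in high dose, 6.91, 5.51 and 2.36 in model, and 1.23, 3.31 and 0.822 in control libraries. Pnpla7, a lysophospholipase gene, lay higher than control in both ApoE-/- groups, averaging 9.68 ± 2.21 FPKM in high dose, 8.28 ± 1.44 in model and 5.59 ± 1.14 in control (SD, n = 3 each). Between high dose and model, Plin3, the ubiquitous perilipin, lay higher at 41.2, 39.8 and 38.8 FPKM against 35.5, 34.1 and 37.7, and Cav1, the caveolin gene, lower at 211, 142 and 255 against 361, 530 and 471 (log2 difference -1.18 ± 0.343). Rab18, a droplet GTPase gene, lay at 32.8 to 38.8 FPKM in model, below 39.1 to 43.0 in control libraries.

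Hormonal and feedback control of lipolysis was read from 35 genes, of which 34 were tested, and again 0 passed in either direction in each comparison. Without overlap, 2 lay higher and 4 lower in model against control (6.91% and 9.06% of all tested genes), 2 higher and 5 lower in high dose against model (11.7% and 10.9%), and 0 higher and 3 lower in high dose against control (3.66% and 5.02%). The genes named below were taken from these. Their median log2 difference was 0.040 for model against control, -0.42 for high dose against model and -0.35 for high dose against control. Hcar1, the lactate receptor that restrains lipolysis in fat cells, stood at 0.653, 0.252 and 0.656 FPKM in high dose and at 1.43, 7.68 and 7.46 in model libraries, without overlap, at a log2 difference of -1.90 ± 0.495 (SE); control libraries held 0.777, 1.89 and 2.13. Adcy5, an adenylyl cyclase gene, stood at 5.23, 10.1 and 7.77 FPKM in high dose, below model (40.5, 16.2 and 17.1) and control (24.2, 25.8 and 16.4). Npr1, the receptor through which natriuretic peptides start lipolysis in human fat, stood at 36.9, 28.4 and 37.7 FPKM in high dose, 55.9, 57.3 and 47.8 in model, and 32.4, 38.4 and 34.7 in control libraries, so model lay above both other groups. Npr3, the clearance receptor for the same peptides, lay lower in model (3.66 to 6.82 FPKM) than in control (9.51 to 36.4). Fabp5, a fatty acid carrier of macrophages and fat cells, lay higher in model (200 to 737 FPKM) than in control (109 to 139.9). Prkar1a and Prkacb, subunits of the kinase that phosphorylates perilipin 1 and LIPE, lay lower in model (76.9 to 90.6 and 19.4 to 23.1 FPKM) than in control (108 to 124 and 23.9 to 36.4). Other subunits of that kinase, named after their values were seen, overlapped: Prkaca stood at 45.2, 67.9 and 91.3 FPKM in model and at 62.1, 59.1 and 124.7 in control, and Prkar2b at 52.1, 176 and 206 in model and at 24.2, 44.0 and 424 in control libraries. Prkg1, the cyclic GMP dependent kinase gene, lay lower in high dose (1.40 to 1.78 FPKM) than in control (2.61 to 3.19), and Fabp3, the heart fatty acid carrier, lay higher in high dose (7.92 to 9.58 FPKM) than in model (0.961 to 6.71). The summed white adipocyte markers given above overlapped between all groups, and the part of these markers, of heart muscle and of macrophage content in the differences named here was not tested.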

How the data were processed

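Purified mRNA of the aortic arch was measured in 9 libraries, 3 per group, all with 1 batch label. The deposited values are FPKM per gene computed by the authors. Builds GRCm38.p5 and mm10 are named per the submitters' processing notes. The aligner, the counter and the use of strand were not given in the sources used here. Since FPKM hold no counts, count models were not used; relative depth came from the steps between values under 0.2 FPKM.

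Genes with at least 1 FPKM in at least 3 libraries were tested on log2(FPKM + 1) with limma 3.58.1 (R 4.3.3), 1 fit over the 3 groups without covariates, and Benjamini-Hochberg adjustment over 12895 genes at 0.05. Fold changes are on that scale and understate those of low genes. An exact permutation test of 3 against 3 cannot go below p = 0.1 and was not used. Groups without overlap were counted beside all tested genes. Loci are from GENCODE M21, promoters from RefSeq. Tables and figures used Python 3.11.15.

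In simulated data for model against control (12895 genes, 200 changed), 0%, 64% and 92.5% of changes of 1, 2 and 4 on the log2 scale were recovered. Unchanged genes called in these runs numbered 0, 5 and 13, and 0 genes were called when none was changed. The simulated noise was independent between genes, and only abundant genes were changed. Shared shifts of tissue content and low genes such as Cideb were therefore not covered. The measured Apoe difference of -4.67 did not pass (limma adjusted p = 0.216). Correlations of same-numbered deviations ran from -0.522 to 0.306 and were above 0.1 in 3 of 9 pairs. Those of differently numbered libraries ran from -0.376 to 0.438. No pairing by number was seen, but the libraries also differ in tissue content, so this check cannot exclude one.

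Named genes are the 10 members, Apoe, and, from the 2 pathway lists, up to 3 genes per comparison and direction without overlap and with the smallest p, with a group mean of at least 2 FPKM. Genes named for a nearby profile, an overlap or the smallest adjusted p of a comparison follow their own rules. The members and lists were chosen with earlier results of these data known. Alternatives changed the pseudocount, filter, scaling, weights, groups fitted, block, covariates and libraries. Mice given other ZCL doses or atorvastatin were not analysed here.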

Additional observations from a re-analysis of the deposited data

How the results depend on the processing

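Of 297 fitted differences of the 10 genes under alternatives other than leaving out a library, 34 turned sign, all under array weights or a covariate; none did under a pseudocount of 0.1, either filter, median-ratio rescaling, quantile normalization, the replicate block or the fit of only 2 groups. The replicate block gave 0 genes and 0 of the 10 called in each comparison. A mean of at least 5 FPKM left Cideb untested. The causes were not tested. Array weights called 684 genes (5.30%) and 1 of the 10, Cideb (limma adjusted p = 0.0434), for model against control, and 6 genes for high dose against model; the fit of only these 2 groups called 1 gene there. Quantile normalization left 0 of the 10 lower without overlap in model against control (8.56% of all genes), and median-ratio rescaling 1 in high dose against control (5.51%). Leaving out 1 library gave 0 to 46 genes called for high dose against model (46 without high dose 3). It gave 0 to 1 of the 10 higher without overlap for model against control (the 1 where 11.7% of all genes were) and 0 to 3 lower for high dose against model (the 3 where 19.8% were). For high dose against control it gave 0 to 1 higher (the 1 where 6.94% were) and 2 to 4 lower (the 4 where 13.4% were). Such counts without overlap cannot fall when a library is left out.

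With array weights the log2 differences that turned were 0.59 for Plin5, 0.68 for Cidec, 0.57 for Pnpla2 and 0.48 for Mgll (model against control), and 0.33 for Lipe and 0.30 for G0s2 (high dose against control). With the white adipocyte covariate they were -0.62 for Plin1, -0.44 for Lipe and -0.33 for G0s2 (model against control). For high dose against model they were 0.46 for Plin1, 0.38 for Plin2, 0.14 for Plin4, 0.74 for Plin5, 1.22 for Cidec, 0.015 for Cideb, 0.77 for Pnpla2, 0.86 for Lipe, 0.27 for Mgll and 0.61 for G0s2. For high dose against control they were 0.30 for Pnpla2, 0.42 for Lipe and 0.28 for G0s2. With the heart muscle covariate they were -1.51 for Plin1, -0.67 for Plin2, -0.92 for Lipe and -0.74 for G0s2 (model against control). For high dose against model they were 0.44 for Plin1, 0.68 for Plin2, 0.64 for Plin5, 1.07 for Cidec, 0.59 for Pnpla2, 0.76 for Lipe, 0.31 for Mgll and 0.40 for G0s2.

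Leaving out 1 library turned the sign in 44 of 270 cases. For model against control the log2 differences ran from -0.61 to 1.20 for Plin1, -0.57 to 0.059 for Plin4, -0.69 to 0.54 for Plin5, -1.33 to 0.20 for Cidec, -0.53 to 0.63 for Pnpla2, -0.46 to 0.76 for Lipe, -0.78 to 0.39 for Mgll and -0.35 to 0.98 for G0s2. For high dose against model they ran from -0.45 to 0.18 for Plin4, -0.98 to 0.0013 for Plin5, -1.27 to 0.22 for Cidec, -0.36 to 0.097 for Cideb, -0.82 to 0.34 for Pnpla2 and -0.71 to 0.17 for Lipe. For high dose against control they ran from -1.84 to 0.055 for Plin1, -0.54 to 1.00 for Plin2, -1.13 to 0.14 for Plin5, -0.65 to 0.36 for Pnpla2, -0.62 to 0.59 for Lipe and -0.86 to 0.46 for G0s2.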
